A study of Mus musculus with 4 samples.

Results

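The genes described here are 34 mouse genes of the cell cycle and mitosis, taken by name as genes known to act there. They were found by Entrez gene number among the 17543 genes listed in any of 4 liver transcript tables, and all 34 were listed. Of these, 10 act mainly around the entry into S phase (G1/S) and 24 act from G2 through mitosis (G2/M). RNA sequencing was done on 2 livers of C57BL/6 mice labelled Ezh2(K307R/K307R), with a lysine-to-arginine substitution on both copies of Ezh2, and on 2 livers of C57BL/6 mice labelled WT. EZH2 is the enzyme of Polycomb repressive complex 2 and methylates lysine 27 of histone H3, a mark of silent genes. The whole liver was taken in both genotypes, and the labels give no sex, age, time of collection or batch. They do not say whether replicates are separate animals, so p-values reflect only the spread among these 4 samples, which may be technical.

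Cells enter S phase when D- and E-type cyclins activate their kinases and release E2F factors from RB proteins, and E2F then switches on genes for origin licensing and DNA precursors. Genes of G2 and mitosis come on later, through B-MYB, FOXM1 and the MuvB complex, which reads the cell cycle homology region (CHR) of their promoters and acts together with NF-Y at CCAAT boxes. Most hepatocytes of an adult liver rest outside the cycle and many are polyploid, and they re-enter it after injury or loss of tissue. Transcripts of these genes in whole liver can come from hepatocytes or from dividing cells of other kinds.

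The libraries held between 18602928 and 20044832 expected counts (estimated reads). Markers of hepatocytes such as Alb and Apoa1 summed to 116600 and 119777 CPM (counts scaled to a common library size) in the Ezh2 K307R livers, against 125746 and 127358 CPM in the WT livers. Ezh2 itself stood at 3.45 and 2.56 CPM in the Ezh2 K307R livers, against 3.36 and 3.93 CPM in the WT livers (log2 fold -0.28, SE 0.33, edgeR quasi-likelihood adjusted p = 0.736). A substitution of 1 residue need not alter the transcript level, so this does not check the labels. Xist, the RNA that coats the inactive X chromosome, stood at 327 and 573 CPM in the Ezh2 K307R livers, against 0.347 and 0.284 CPM in the WT livers. The Y-linked genes Ddx3y, Eif2s3y, Kdm5d and Uty had 0 reads in both Ezh2 K307R livers, and Ddx3y had 67.6 and 52.4 CPM in the WT livers. The clock gene Arntl stood at 12.3 and 23.7 CPM in the Ezh2 K307R livers, against 1.10 and 1.18 CPM in the WT livers. Genotype, the sex chromosome pattern and the clock pattern coincide in all 4 livers, so that for every result below they cannot be told apart.

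Between the genotypes, none of the 34 genes passed the test. Enough reads for a test were found for 27 of them, 9 of G1/S and 18 of G2/M, and edgeR's quasi-likelihood test called 0 higher and 0 lower in Ezh2 K307R at an adjusted p under 0.05. Over all 12837 genes tested the same rule called 2.86%, with 1.39% higher and 1.47% lower. At an unadjusted p under 0.05 there were 6 of the 27, namely Ccne2, Rrm1, E2f1, Hells and Cdk1 with lower values in Ezh2 K307R and E2f8 with higher values, against 16.8% of all genes tested. DESeq2 called 3, with Ccne2 and Cdk1 lower and E2f8 higher, against 5.95% of all genes, and limma-voom called 0, against 2.3%. Without the read filter edgeR called the same 3 of 34, against 4.74%. With 0 members called, the share of all genes was 2.91% with RLE factors, 2.97% with upper-quartile factors, 2.43% with total-count scaling, 2.65% at a mean of at least 1 CPM, 2.7% with the replicate number as a block, and 1.54% and 1.52% in the fits of log2(FPKM + 1) and log2(FPKM + 0.1).

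The fitted values lay mostly below 0 all the same. The log2 fold change of Ezh2 K307R over WT was below 0 for 25 of the 27 genes, against 48.9% of all genes tested. Its median was -0.88 over the 9 G1/S genes and -0.88 over the 18 G2/M genes, while the median over all genes was 0.01. In the G2/M genes the error was nearly as large as these values. Their SE ran between 0.40 and 1.06, and the 95% interval held 0 for 17 of the 18. In the G1/S genes the median SE was 0.38, and the interval held 0 for 4 of the 9. Without WT liver 2 the G2/M median turned to 0.34 and the G1/S median stood at -0.36, and without WT liver 1, over the same 27 genes, they stood at -1.65 and -1.02. None of the 27 genes passed the test with all livers. Should the genotypes differ, fewer cycling cells and less RNA per cycling cell could not be told apart in whole liver.

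**Figure D1:**
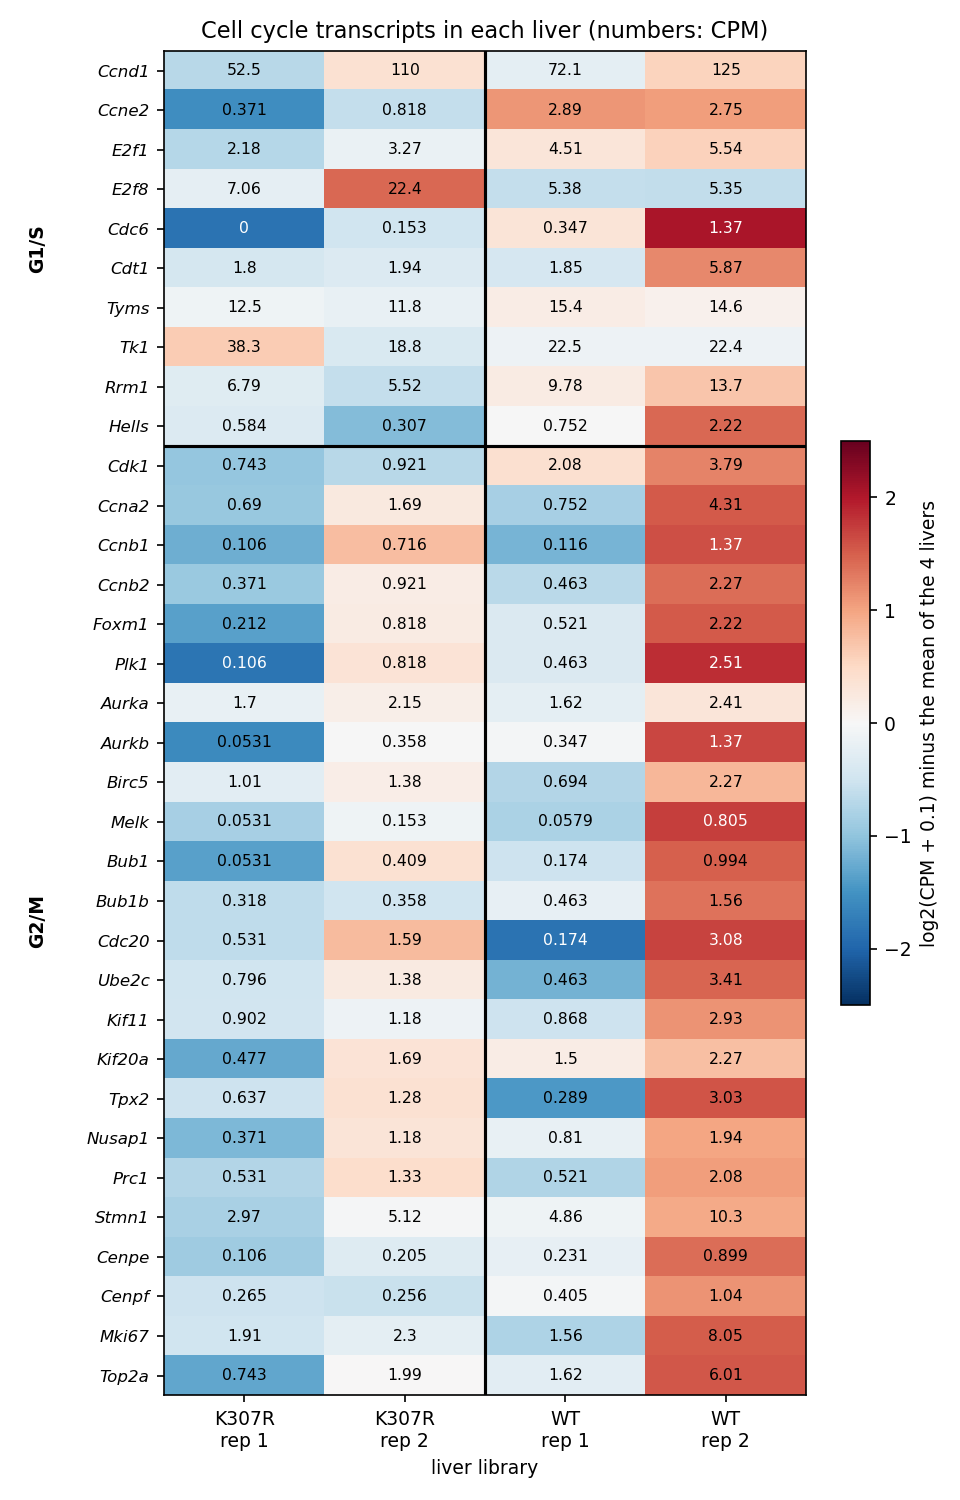
All 34 genes in each liver, with the CPM printed in each cell and the colour showing log2(CPM + 0.1) minus the mean of the gene over the 4 livers, and with Ezh2 K307R livers 1 and 2 left of WT livers 1 and 2 and genes ordered by role. WT liver 2 holds the highest value in 24 of the 24 G2/M genes and in 6 of the 10 G1/S genes.

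The levels were low, and lower in the G2/M genes than in the G1/S genes. Per length, the mean FPKM over the 4 livers had a median of 1.82 over the G1/S genes and 0.376 over the G2/M genes, against 4.61 over all genes tested. A mean of at least 1 FPKM was reached by 7 of the 10 G1/S genes and by 3 of the 24 G2/M genes (Stmn1, Ube2c and Aurka). The highest was Ccnd1 at 23.7 FPKM, followed by Tk1 at 18.5 FPKM and Stmn1 at 5.57 FPKM. The lowest were the centromere genes Cenpe at 0.0475 FPKM and Cenpf at 0.0425 FPKM. The range therefore spans the strongly expressed cyclin of G1 and kinetochore genes with a handful of reads.

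Of the G1 cyclins, Ccne2 differed between the genotypes without overlap and Ccnd1 did not. Ccne2 (cyclin E2, which activates CDK2 at the entry into S phase, chr4:11190433-11204779, mm10) had 0.371 and 0.818 CPM in the Ezh2 K307R livers, against 2.89 and 2.75 CPM in the WT livers. The genotypes did not overlap and the WT livers lay close together. Its log2 fold change of -2.23 (SE 0.48, 95% interval -3.33 to -1.12) was the lowest of the 27, at an edgeR adjusted p of 0.0550. Under the other settings this adjusted p ran between 0.00982 and 0.231, and it passed with DESeq2 (0.0127), without the read filter (0.00982), without WT liver 1 (0.0387) and without WT liver 2 (0.0336). Ccne2 shares 17.4% of its exon bases with Ints8 on the opposite strand, and Ints8 had 16.1 and 14.3 CPM in the Ezh2 K307R livers, against 23.7 and 17.2 CPM in the WT livers. The sources used here do not give the strand setting of the counts, so reads in that stretch cannot be assigned. In all, 10 of the 34 genes share exon bases with another protein-coding gene, between 1.6% (Tk1 with Afmid) and 29.3% (Kif20a with Cdc23) of their own. Ccnd1 (cyclin D1, the cyclin induced by growth signals) had 52.5 and 110 CPM in the Ezh2 K307R livers, against 72.1 and 125 CPM in the WT livers. Both genotypes had a low and a high liver, and the groups overlapped (log2 fold -0.29, SE 0.38, edgeR adjusted p = 0.769).

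The E2F factors had values in opposite directions. E2f1 (an activator of S phase genes) had 2.18 and 3.27 CPM in the Ezh2 K307R livers, against 4.51 and 5.54 CPM in the WT livers. The genotypes did not overlap, with a log2 fold change of -0.88 (SE 0.33, 95% interval -1.66 to -0.11) and an edgeR adjusted p of 0.237. E2f8 (an atypical E2F that represses E2F targets and is known in the mouse for making hepatocytes polyploid, chr7:48866429-48882073) had 7.06 and 22.4 CPM in the Ezh2 K307R livers, against 5.38 and 5.35 CPM in the WT livers. It is the only one of the 34 whose values were higher in Ezh2 K307R without overlap, and most of its distance from WT lies in Ezh2 K307R liver 2. Its log2 fold change was 1.46 (SE 0.48, 95% interval 0.35 to 2.56), with an edgeR adjusted p of 0.174 that ran between 0.00583 and 0.767 under the other settings. It passed with DESeq2 (0.0390), without the read filter (0.0334) and without Ezh2 K307R liver 1, where the log2 fold change was 2.06. Without Ezh2 K307R liver 2 it was 0.40.

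Both origin licensing genes were highest in WT liver 2. Cdt1 (which loads the MCM helicase at origins) had 1.8 and 1.94 CPM in the Ezh2 K307R livers, against 1.85 and 5.87 CPM in the WT livers. WT liver 1 sat between the Ezh2 K307R livers, and without WT liver 2 the fitted log2 value of -1.05 (SE 0.53, edgeR adjusted p = 0.377) became 0.01. Cdc6 (its partner in loading the helicase) had 0 and 3 reads in the Ezh2 K307R livers, against 6 and 29 reads in the WT livers. These were too few for the test. The reads of WT over those of Ezh2 K307R gave a ratio of 11.7 with an exact 95% counting interval of 3.68 to 59.3, which covers counting error only.

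Among the genes for DNA precursors, Rrm1 and Tk1 differed in direction. Rrm1 (the large subunit of ribonucleotide reductase) had 6.79 and 5.52 CPM in the Ezh2 K307R livers, against 9.78 and 13.7 CPM in the WT livers. The genotypes did not overlap (log2 fold -0.93, SE 0.26, 95% interval -1.54 to -0.33, edgeR adjusted p = 0.118). Tyms (thymidylate synthase) had 12.5 and 11.8 CPM in the Ezh2 K307R livers, against 15.4 and 14.6 CPM in the WT livers. The livers of each genotype lay close together here, and the 95% interval of its log2 fold change (-0.76 to 0.14) still held 0. Tk1 (thymidine kinase 1, the salvage enzyme) had 38.3 and 18.8 CPM in the Ezh2 K307R livers, against 22.5 and 22.4 CPM in the WT livers. Both WT livers fell between the Ezh2 K307R livers, with a fitted log2 value of 0.34 (SE 0.32, edgeR adjusted p = 0.646) that was -0.25 without Ezh2 K307R liver 1. Hells (a chromatin remodeller that aids DNA methylation in dividing cells) had 0.584 and 0.307 CPM in the Ezh2 K307R livers, against 0.752 and 2.22 CPM in the WT livers. The genotypes did not overlap, and the gap between WT liver 1 and the Ezh2 K307R livers was small beside that between the WT livers.

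**Figure D2:**
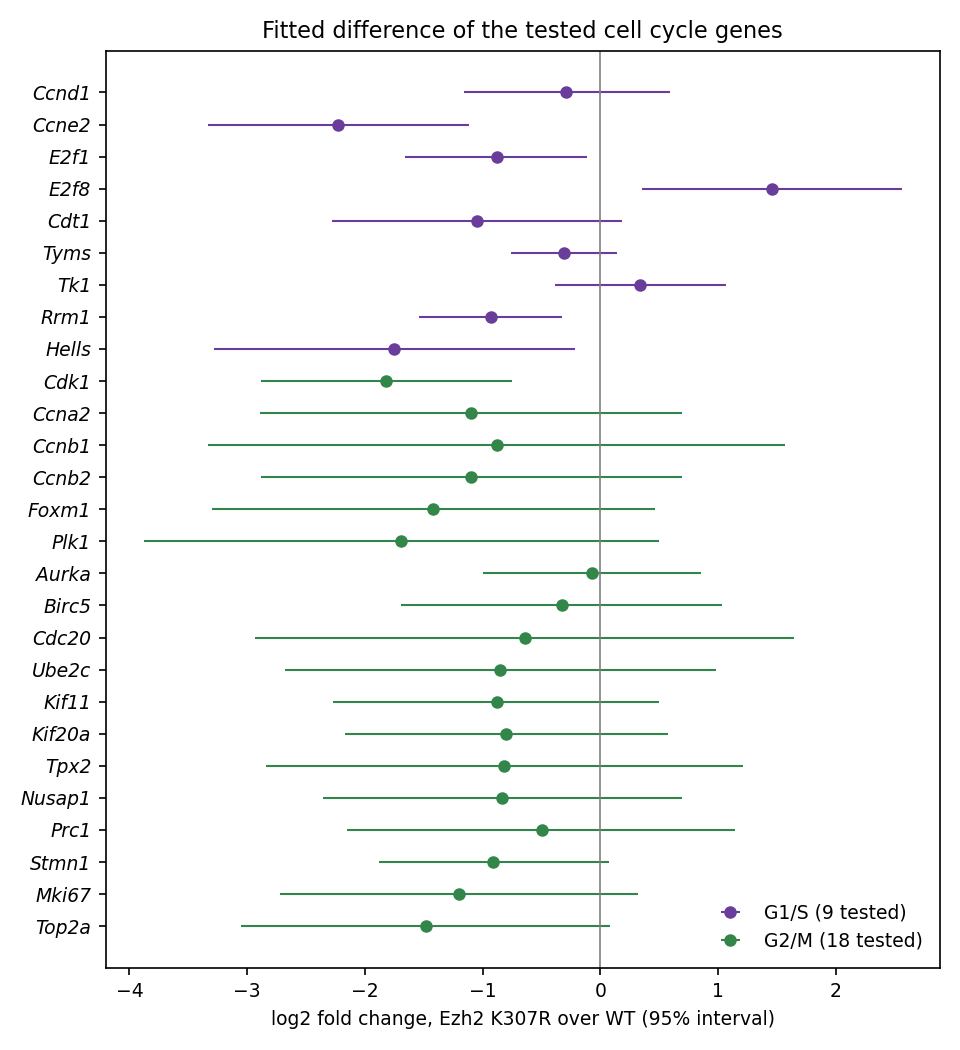
Log2 fold change of Ezh2 K307R over WT for the 27 genes tested, with 95% intervals from the edgeR fit, G1/S genes apart from G2/M genes. The interval lies clear of 0 for 6 genes, and none of these passed at an adjusted p under 0.05.

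The promoters of the 2 classes differ in how often they match each motif, and examples are shown. The genes were taken by name, and the CHR is a known element of G2/M promoters. Whether these motifs bear on the levels in the livers was not tested. RefSeq promoters (GRCm38.p6, the assembly of mm10, 250 bases before to 50 bases after the start) were found for 26 of the 34 genes. They were searched on both strands for the CHR (TTTGAA, or in its second form TTCGAA), the CCAAT box and an E2F site (TTTGGCGC, TTTCGCGC, TTTCCCGC or TTTGCCGC). No match to a motif shares a base with a match to another of the motifs. In the 140 bases before the start, 5′ to 3′ on the strand of the gene, capitals mark every match on either strand. Of the G2/M genes, Cdk1 has a match to all 3 motifs, Top2a has several CHR and CCAAT matches, Kif11 and Cdc20 have single CHR matches. Of the G1/S genes, E2f8 is the one with a CHR match, and Rrm1 has CCAAT matches alone. For E2f8 the start used lies inside the gene span given above (chr7:48866429-48882073). Its stretch is therefore within that span and not before it.
Cdk1 (chr10:69352913-69353052, minus strand): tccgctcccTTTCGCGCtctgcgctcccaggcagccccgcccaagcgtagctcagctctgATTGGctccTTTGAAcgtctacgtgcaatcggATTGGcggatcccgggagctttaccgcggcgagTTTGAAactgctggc
Top2a (chr11:99024190-99024329, minus strand): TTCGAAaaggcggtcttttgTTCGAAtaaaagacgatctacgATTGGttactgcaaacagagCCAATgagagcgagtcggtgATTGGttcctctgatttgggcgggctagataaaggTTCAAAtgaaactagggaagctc
Kif11 (chr19:37376242-37376381, plus strand): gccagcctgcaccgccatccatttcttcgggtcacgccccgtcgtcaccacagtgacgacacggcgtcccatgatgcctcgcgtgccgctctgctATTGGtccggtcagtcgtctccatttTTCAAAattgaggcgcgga
Cdc20 (chr4:118437344-118437483, minus strand): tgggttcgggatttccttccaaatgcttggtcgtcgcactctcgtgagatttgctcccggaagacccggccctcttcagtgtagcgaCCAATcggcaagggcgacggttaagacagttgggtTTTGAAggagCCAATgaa
E2f8 (chr7:48881597-48881736, minus strand): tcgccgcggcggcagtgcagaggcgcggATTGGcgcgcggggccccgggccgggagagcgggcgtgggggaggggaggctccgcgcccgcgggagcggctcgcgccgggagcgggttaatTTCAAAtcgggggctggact
Rrm1 (chr7:102441555-102441694, plus strand): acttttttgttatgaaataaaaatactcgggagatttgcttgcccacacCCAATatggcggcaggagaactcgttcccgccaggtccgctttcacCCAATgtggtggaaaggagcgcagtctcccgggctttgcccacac

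A CHR match was found in 13 of 18 G2/M promoters (72.2%) and in 1 of 8 G1/S promoters (12.5%), against 16.6% of the promoters of tested genes and 21.7% of all promoters in the table. A CCAAT match was found in 15 of the 18 G2/M promoters (83.3%) and in 2 of the 8 G1/S promoters (25.0%), against 42.9% of tested genes. Both together were found in 72.2% of the G2/M promoters, against 8.07% of tested genes. The E2F site was rarer, with 3 of the 8 G1/S promoters (37.5%, Cdc6, Cdt1 and Hells) and 1 of the 18 G2/M promoters (5.56%, Cdk1), against 4.60% of tested genes. CHR and CCAAT matches thus lay mainly in G2/M promoters. A match is a description of these letters and not of binding.

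Of the 18 tested G2/M genes, only Cdk1 was lower in Ezh2 K307R without overlap, against 23.4% of all genes tested. Cdk1 (the kinase that drives entry into mitosis, chr10:69335146-69352912) had 0.743 and 0.921 CPM in the Ezh2 K307R livers, against 2.08 and 3.79 CPM in the WT livers. Both WT livers lay above both Ezh2 K307R livers, by more than the WT livers differed from each other on the log scale. Its log2 fold change was -1.82 (SE 0.46, 95% interval -2.88 to -0.75), the one G2/M interval clear of 0, with an edgeR adjusted p of 0.0872 that ran between 0.0140 and 0.305 under the other settings. DESeq2 gave it 0.0493 and the fit without the read filter 0.0267. Without WT liver 2 the log2 fold change of Cdk1 was -1.32.

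Its partner cyclins did not share that pattern. Ccna2 (cyclin A2) had 0.690 and 1.69 CPM in the Ezh2 K307R livers, against 0.752 and 4.31 CPM in the WT livers. Ccnb1 (cyclin B1) had 2 and 14 reads in the Ezh2 K307R livers, against 2 and 29 reads in the WT livers. Ccnb2 (cyclin B2) had 7 and 18 reads in the Ezh2 K307R livers, against 8 and 48 reads in the WT livers. In each of the 3 cyclins the first liver of both genotypes was low at nearly the same level and the second was higher, so the groups overlapped. Their log2 fold changes of -1.10, -0.88 and -1.10 became 0.66, 1.78 and 0.48 without WT liver 2.

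The mitotic kinases and their transcription factor were also highest in WT liver 2, but the first livers of the genotypes were not always level. Foxm1 (the factor that switches on G2/M genes) had 0.212 and 0.818 CPM in the Ezh2 K307R livers, against 0.521 and 2.22 CPM in the WT livers. Plk1 (Polo-like kinase 1) had 2 and 16 reads in the Ezh2 K307R livers, against 8 and 53 reads in the WT livers. Here the order of the 4 livers was Ezh2 K307R 1, WT 1, Ezh2 K307R 2 and WT 2. Aurka (Aurora kinase A, of the spindle poles) had 1.70 and 2.15 CPM in the Ezh2 K307R livers, against 1.62 and 2.41 CPM in the WT livers. Its fitted change was the smallest of the 27, a log2 fold change of -0.07 (SE 0.40) with a 95% interval of -1.0 to 0.85. That interval does not give the size of change a call would need. Cdk1, at -1.82 with an SE of 0.46, was not called either. Aurkb (Aurora kinase B) had 1 and 7 reads in the Ezh2 K307R livers, against 6 and 29 reads in the WT livers. Birc5 (survivin, of the same chromosomal passenger complex) had 19 and 27 reads in the Ezh2 K307R livers, against 12 and 48 reads in the WT livers. WT liver 2 was the highest of the 4 in both, and for Birc5 WT liver 1 was the lowest. Melk (a kinase of dividing cells) had 4 reads over the Ezh2 K307R livers, against 18 reads over the WT livers, 17 of them in liver 2. For Birc5 the extra reads of WT liver 2 were assigned mainly to a transcript of 977 bases, with 6.02 and 3.39 expected counts in the Ezh2 K307R livers, against 2.26 and 31.4 in the WT livers. The transcript of 3416 bases had 12.8 and 23.5 expected counts in the Ezh2 K307R livers, against 9.83 and 16.5 in the WT livers. How RSEM divides reads between transcripts is uncertain at this depth: in E2f1 all 117 reads of WT liver 2 went to the transcript of 2739 bases and all 78 of WT liver 1 to the transcript of 2695 bases.

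The checkpoint genes and the regulators of the anaphase-promoting complex were as uneven. Cdc20 (which activates that complex at anaphase) had 10 and 31 reads in the Ezh2 K307R livers, against 3 and 65 reads in the WT livers. It had the widest gap between the WT livers, 17.7-fold in CPM, and both Ezh2 K307R livers fell inside it. Its log2 fold change was -0.64 (SE 0.99, 95% interval -2.93 to 1.64), and it turned to 0.15 in limma-voom and to 2.56 without WT liver 2. Ube2c (the ubiquitin-conjugating enzyme of the complex) had 15 and 27 reads in the Ezh2 K307R livers, against 8 and 72 reads in the WT livers. The spindle checkpoint genes Bub1 and Bub1b fell under the read filter. Bub1 had 1 and 8 reads in the Ezh2 K307R livers, against 3 and 21 reads in the WT livers, and the groups overlapped. Bub1b had 6 and 7 reads in the Ezh2 K307R livers, against 8 and 33 reads in the WT livers, and they did not.

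Of the spindle and centromere genes, Stmn1 had the most reads. Stmn1 (stathmin, which destabilises microtubules) had 2.97 and 5.12 CPM in the Ezh2 K307R livers, against 4.86 and 10.3 CPM in the WT livers. WT liver 1 fell just under Ezh2 K307R liver 2 (log2 fold -0.91, SE 0.42, edgeR adjusted p = 0.330). The kinesins Kif11 (which pushes the spindle poles apart) and Kif20a (of cytokinesis), with Tpx2, Nusap1 and Prc1, which organise spindle microtubules, had log2 fold changes between -0.88 and -0.50. Kif11 had 0.902 and 1.18 CPM in the Ezh2 K307R livers, against 0.868 and 2.93 CPM in the WT livers. Tpx2 had 12 and 25 reads in the Ezh2 K307R livers, against 5 and 64 reads in the WT livers. In all 5 the groups overlapped. Cenpe and Cenpf (of the kinetochore) had 6 and 10 reads over the Ezh2 K307R livers, against 23 and 29 reads over the WT livers. Their genotypes did not overlap, at levels too low for the test.

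The chromosome genes Mki67 and Top2a show the same split within WT. Mki67 (Ki-67, the coat of mitotic chromosomes and the usual marker of proliferation, chr7:135689784-135716450) had 1.91 and 2.30 CPM in the Ezh2 K307R livers, against 1.56 and 8.05 CPM in the WT livers. WT liver 1 was the lowest of the 4 and WT liver 2 the highest. Its log2 fold change was -1.20 (SE 0.66, 95% interval -2.72 to 0.32, edgeR adjusted p = 0.419), it passed without WT liver 1 (-1.93, adjusted p = 0.00423) and it was 0.43 without WT liver 2. Its adjusted p ran between 0.00423 and 0.759 under the other settings. Top2a (topoisomerase II alpha, which untangles chromosomes) had 0.743 and 1.99 CPM in the Ezh2 K307R livers, against 1.62 and 6.01 CPM in the WT livers. Here too the groups overlapped (log2 fold -1.48, SE 0.68, edgeR adjusted p = 0.323).

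Counted over all 34 genes, values without overlap were found in 11, 10 lower and 1 higher in Ezh2 K307R. The G1/S genes gave 6 lower and 1 higher of 10, and the G2/M genes gave 4 lower of 24. Of the genes lower without overlap, Cdc6, Bub1b, Cenpe and Cenpf were not tested. Among tested genes alone, the counts were 5 lower and 1 higher of 9 in G1/S, and 1 lower of 18 in G2/M. Over all genes tested, 23.4% were lower and 25.2% higher without overlap, 48.6% in all, so the share in the tested G2/M genes is below that background. The 7 genes not tested (Cdc6, Aurkb, Melk, Bub1, Bub1b, Cenpe and Cenpf) reached the read filter's level in WT liver 2 alone. All 27 tested genes reached it in livers of both genotypes.

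**Figure D3:**
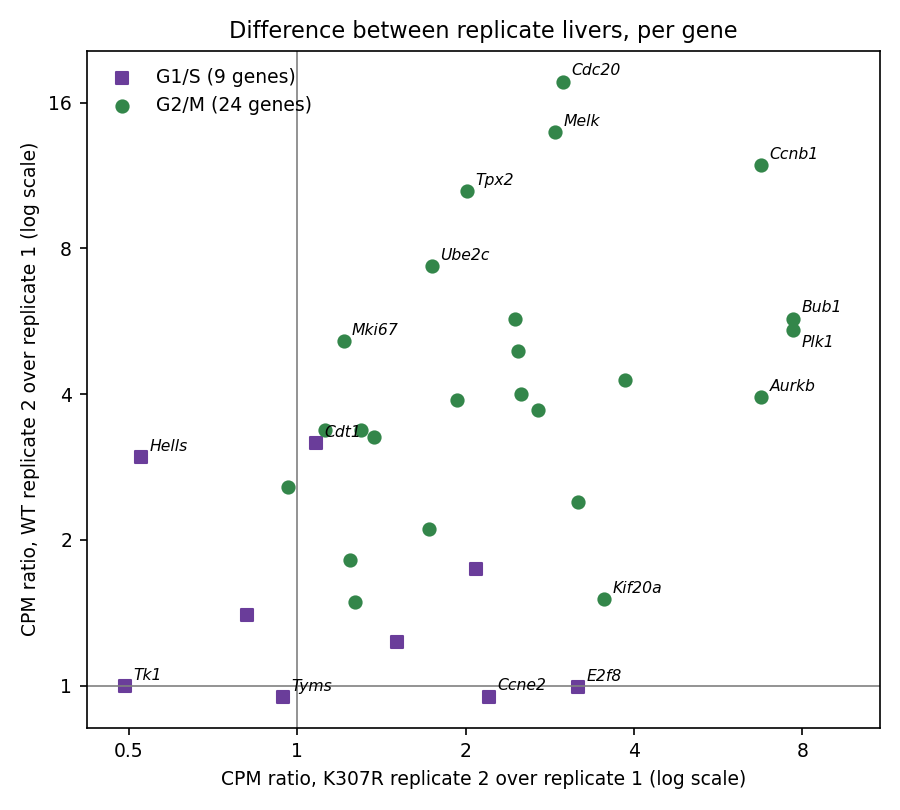
Each point is 1 gene, with the ratio of Ezh2 K307R liver 2 over liver 1 on the x axis and of WT liver 2 over liver 1 on the y axis, in CPM on log scales. All 24 G2/M genes lie above a WT ratio of 1, and 23 of them lie above an Ezh2 K307R ratio of 1. Cdc6, at 0 reads in Ezh2 K307R liver 1, has no point.

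The spread between livers of 1 genotype was the main feature of the G2/M genes. WT liver 2 was above WT liver 1 in 24 of 24 and Ezh2 K307R liver 2 above liver 1 in 23 of 24 (all but Cenpf), against 50.7% of all genes tested for WT and 50% for Ezh2 K307R. The median ratio of WT liver 2 over WT liver 1 was 3.98 over the G2/M genes (1.49 in Aurka to 17.7 in Cdc20) and 1.31 over the G1/S genes. Over all genes tested it was 1.0, with a 90th percentile of 1.66. A ratio of at least 2 was found in 21 of the 24 G2/M genes and 3 of the 10 G1/S genes (Cdc6, Cdt1 and Hells), against 5.87% of all genes tested. Among the 24 are 6 not tested, and WT liver 2 was the highest liver in all 18 tested. The genes tested as a whole stood higher, at a median of 4.61 FPKM against 0.376 FPKM over the G2/M genes. No comparison at a matched level was made, and low counts widen ratios. Between the Ezh2 K307R livers the median ratio was 2.46 over the G2/M genes and 1.08 over the G1/S genes. The livers are not paired by the labels, which give a number only.

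Summed over the 24 G2/M genes, the livers stood at 15.7 and 30.2 CPM in Ezh2 K307R, against 21.1 and 70.9 CPM in WT. The means were 22.9 ± 10.3 CPM in Ezh2 K307R and 46.0 ± 35.2 CPM in WT (SD, n = 2 each), a log2 ratio of -1.0. WT liver 1 lay between the Ezh2 K307R livers, and the ratio of the WT livers was 3.37 with a 95% counting interval of 3.0 to 3.79. Against WT liver 1, Ezh2 K307R livers 1 and 2 stood at log2 ratios of -0.43 and 0.52, and against WT liver 2 at -2.18 and -1.23. Summed over the 10 G1/S genes, the livers stood at 122 and 175 CPM in Ezh2 K307R, against 136 and 199 CPM in WT. Ccnd1 and Tk1 make up most of that sum, and without Ccnd1 it was 69.5 and 65.0 CPM in Ezh2 K307R, against 63.5 and 73.9 CPM in WT.

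**Figure D4:**
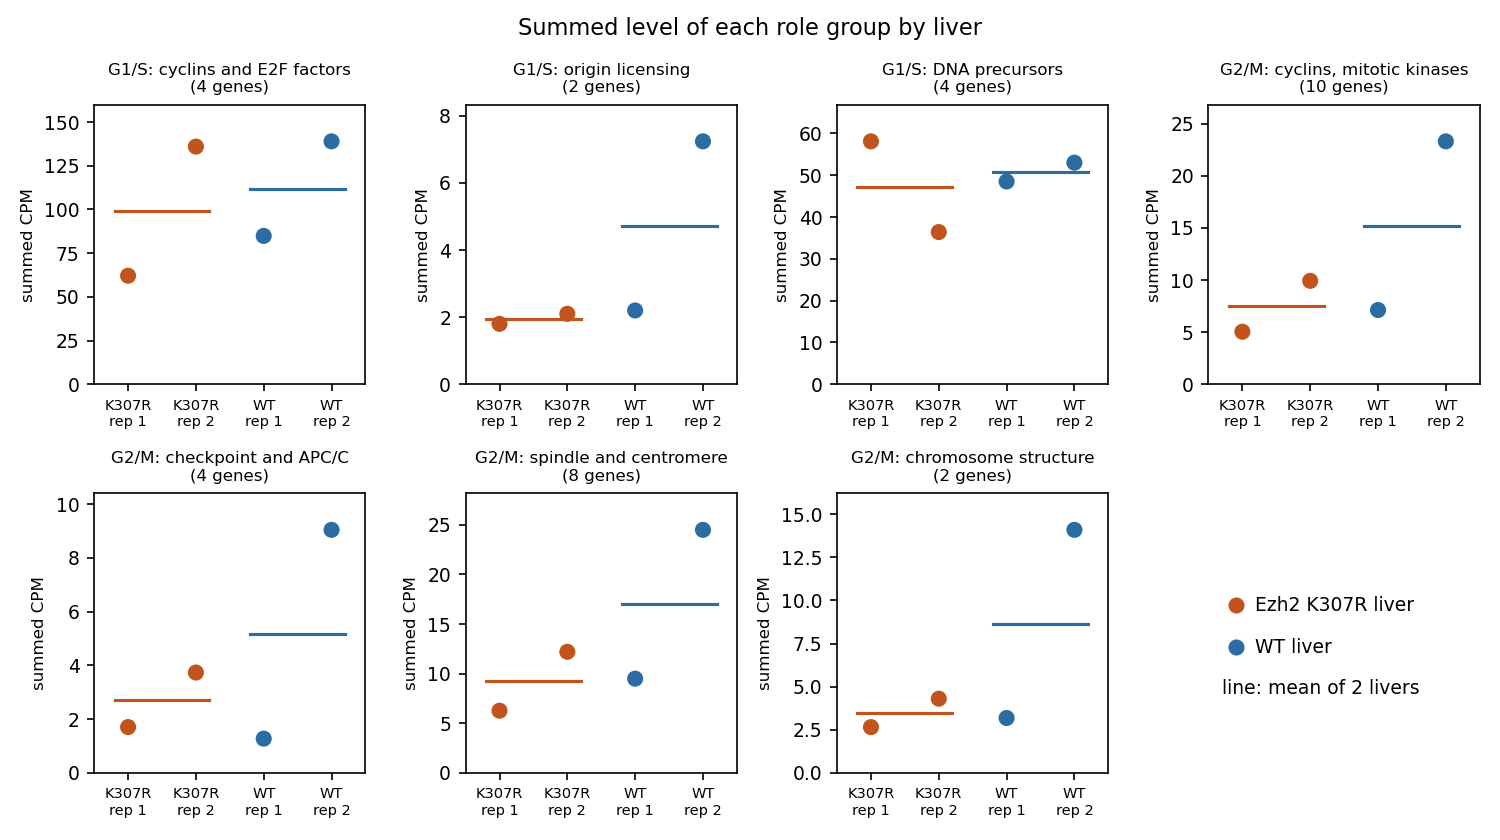
Summed CPM of the 34 genes by role in each liver (points), Ezh2 K307R left of WT, with a line at the mean of the 2 livers of a genotype and an axis of its own for each role. In each G2/M role WT liver 2 is the highest and the other WT liver is within or near the range of the Ezh2 K307R livers.

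By role, the kinases, cyclins and their regulators of G2/M summed to 5.04 and 9.92 CPM in Ezh2 K307R, against 7.12 and 23.3 CPM in WT. The checkpoint and anaphase-promoting genes summed to 1.70 and 3.73 CPM in Ezh2 K307R, against 1.27 and 9.04 CPM in WT. The spindle and centromere genes summed to 6.26 and 12.2 CPM in Ezh2 K307R, against 9.49 and 24.5 CPM in WT. In the 3 roles WT liver 2 was at least 2 times as high as any other liver, and WT liver 1 was near the lower Ezh2 K307R liver or between both. For DNA precursors and chromatin the order was another, with 58.1 and 36.4 CPM in Ezh2 K307R, against 48.5 and 53.0 CPM in WT.

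**Figure D5:**
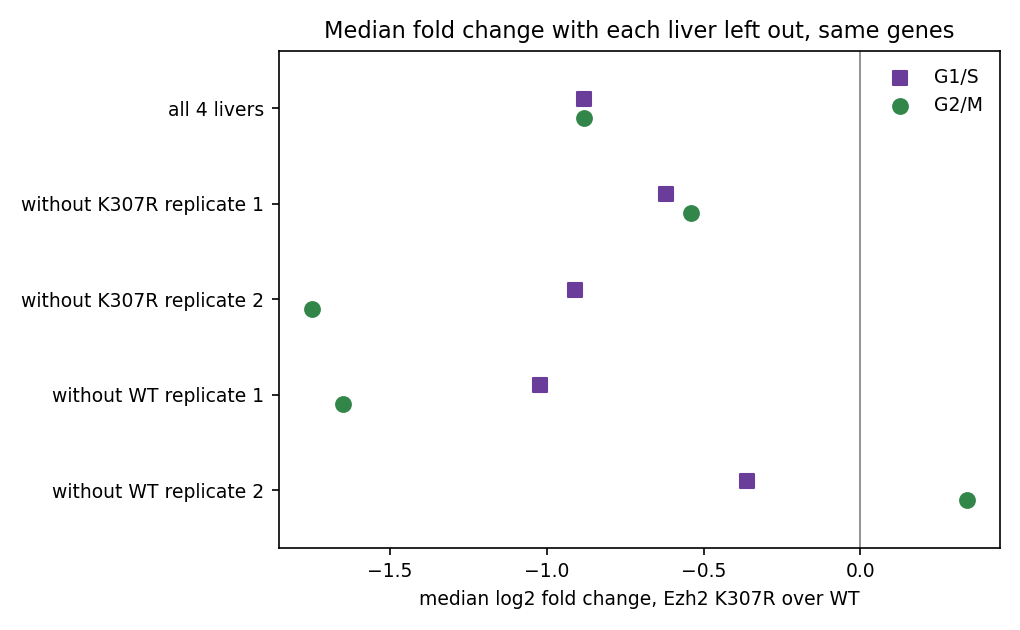
Median log2 fold change of Ezh2 K307R over WT for the 9 G1/S and 18 G2/M genes tested with all 4 livers, in the fit with all livers and with each liver left out. Over these 18 genes the G2/M median runs between -1.75 and 0.34, and it lies above 0 without WT liver 2.

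Leaving out a liver changed the calls as well as the medians. Without WT liver 1, edgeR's quasi-likelihood test called 10 of the 34 genes lower in Ezh2 K307R (Ccne2, Cdc6, Cdt1, Rrm1, Hells, Cdk1, Ccna2, Stmn1, Mki67 and Top2a), against 2.95% of all genes called lower in that fit. With 1 liver in a group the filter admits a gene through a single liver, and it added the 7 genes that reach its level in WT liver 2 alone. Of the 10 called, Cdc6 entered in this way, and the other 9 were also tested with all livers. Without WT liver 2 it called Ccne2 alone, lower, against 2.32% of all genes, and without Ezh2 K307R liver 1 it called E2f8 alone, higher, against 1.26%. It called none without Ezh2 K307R liver 2, against 1.59%.

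Other genes of the pathway, from lists chosen by function, gave few calls. Of 66 other mitosis genes 41 were tested and 0 passed in either direction by edgeR's quasi-likelihood test, against 2.86% of all genes tested. An unadjusted p under 0.05 was found for 10, all lower, against 16.8% of all genes tested, and the median log2 fold change was -0.56. DESeq2 called 1 of these mitosis genes lower, against 5.95% of all genes called in either direction. WT liver 2 held the highest value in 58 of the 66 and in 34 of the 41 tested, against 25.2% of all genes tested. Ncaph (a condensin subunit) had 8 and 5 reads in the Ezh2 K307R livers, against 26 and 64 reads in the WT livers, with an edgeR adjusted p of 0.0506.

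All calls among the other S phase genes were lower. Of 34 other G1/S and DNA precursor genes 28 were tested, 0 rose and 2 fell, beside 1.39% of all genes that rose and 1.47% that fell, and the median log2 fold change was -0.62. Ccne1 (cyclin E1, the sister of Ccne2) fell to 0.265 and 0.512 CPM in the Ezh2 K307R livers, against 4.57 and 2.18 CPM in the WT livers (log2 fold -3.09, edgeR adjusted p = 0.0363). Rrm2 (the small subunit that pairs with RRM1) fell to 3.87 and 2.56 CPM in the Ezh2 K307R livers, against 8.56 and 10.7 CPM in the WT livers (log2 fold -1.58, edgeR adjusted p = 0.0391). Neither held under every setting. Ccne1 was at 0.130 without Ezh2 K307R liver 1, at 0.0787 without Ezh2 K307R liver 2 and at 0.0633 in limma-voom, in a range over the other settings of 0.00044 to 0.130. Rrm2 was at 0.137 without Ezh2 K307R liver 2 and at 0.0729 with total-count scaling, in a range of 0.00154 to 0.137. Both also missed the threshold in the fits of FPKM, with adjusted p between 0.0909 and 0.0945.

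Of 39 genes of the replication fork and the MCM helicase 36 were tested, and 0 rose and 2 fell. This stood beside 1.39% of all genes that rose and 1.47% that fell, and the median log2 fold change was -0.40. Mcm10 (which helps to fire origins) fell to 18.0 and 15.4 CPM in the Ezh2 K307R livers, against 53.2 and 64.8 CPM in the WT livers (log2 fold -1.82, SE 0.21, edgeR adjusted p = 0.00646). Mcm6 (a subunit of the helicase) fell to 2.92 and 1.99 CPM in the Ezh2 K307R livers, against 10.4 and 15.6 CPM in the WT livers (log2 fold -2.40, SE 0.32, edgeR adjusted p = 0.0117). Both kept an adjusted p under 0.05 with any liver left out, and both WT livers lay above both Ezh2 K307R livers. Mcm6 missed the threshold in the fits of FPKM, at 0.0566 and 0.0508, the upper end of a range from 1.15e-07 over the other settings. None of these 4 genes is among the 34.

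The factors that control the programme gave no call. Of 21 E2F, RB and DREAM genes 18 were tested, and 0 passed by edgeR's quasi-likelihood test, against 2.86% of all genes tested. An unadjusted p under 0.05 was found for 3, against 16.8% of all genes tested, and the median log2 fold change was -0.02. DESeq2 also called 0 of these factors, against 5.95% of all genes. The smallest p was that of Rbl1 (p107, an RB family protein), with a log2 fold change of -1.25 and an adjusted p of 0.154. Of 26 inhibitors and checkpoint genes 23 were tested, 1 rose and 1 fell, beside 1.39% and 1.47% of all genes, with a median of 0.08. Wee1 (the kinase that holds CDK1 inactive, which is also driven by the clock) fell to 4.46 and 4.86 CPM in the Ezh2 K307R livers, against 23.4 and 15.3 CPM in the WT livers (log2 fold -2.05, edgeR adjusted p = 0.0111). Btg1 (an antiproliferative gene) rose to 95.1 and 87.4 CPM in the Ezh2 K307R livers, against 48.3 and 36.1 CPM in the WT livers (log2 fold 1.11, edgeR adjusted p = 0.0378, which ran up to 0.0956 with a liver left out).

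Markers of other dividing or blood-borne cells were read beside these values. The 6 erythroid precursor markers summed to 22.4 and 32.4 CPM in Ezh2 K307R, against 112 and 66.0 CPM in WT, mostly Alas2, with Gata1 and Rhag at 0 in some livers. That sum was higher in WT liver 1 than in WT liver 2, the opposite of the G2/M genes. Alas2 carried most of it, with 16.8 and 27.6 CPM in Ezh2 K307R, against 108 and 62.3 CPM in WT. Of the 3 erythroid markers tested, Alas2 was fitted below 0 and the other 2 above 0, with a median log2 fold change of 0.47. The 6 Kupffer cell markers summed to 256 and 164 CPM in Ezh2 K307R, against 124 and 152 CPM in WT, with none at 0. The 8 T and NK cell markers summed to 5.36 and 4.09 CPM in Ezh2 K307R, against 4.69 and 6.30 CPM in WT, with none at 0. The 5 B and plasma cell markers summed to 15.4 and 3.94 CPM in Ezh2 K307R, against 5.15 and 7.01 CPM in WT, with none at 0. These immune sums were spread within a genotype. Of them only the T and NK cell sum was highest in WT liver 2, at a ratio of 1.34 between the WT livers. Its Ezh2 K307R livers stood in the reverse order of those in the G2/M sum. The 5 neutrophil markers summed to 15.4 and 10.2 CPM in Ezh2 K307R, against 12.8 and 9.51 CPM in WT, with Elane at 0 outside WT liver 2. The 5 sinusoidal endothelial markers summed to 73.6 and 83.1 CPM in Ezh2 K307R, against 47.1 and 66.0 CPM in WT. Neither was highest in WT liver 2. The 5 stellate cell markers summed to 255 and 197 CPM in Ezh2 K307R, against 96.0 and 157 CPM in WT. Within that list Dcn (decorin) rose and Col1a1 (collagen I) fell, to 7.06 and 4.81 CPM in Ezh2 K307R, against 17.5 and 48.6 CPM in WT (log2 fold -2.48, edgeR adjusted p = 0.0365). The 5 bile duct markers summed to 32.0 and 59.8 CPM in Ezh2 K307R, against 70.3 and 54.3 CPM in WT. Over these 8 lists the ratio of WT liver 2 over WT liver 1 lay between 0.591 and 1.63, against 3.37 for the G2/M sum. Abundant genes weigh most in such sums, and single markers were higher in WT liver 2 than in WT liver 1: Cd8a by 4.70-fold, Ncr1 by 4.09-fold, Marco by 4.04-fold, Lyve1 by 3.18-fold and Col1a1 by 2.77-fold. Cd8a and Ncr1 rest on few reads, at 0.231 and 0.0579 CPM in WT liver 1. WT liver 2 was above WT liver 1 in 7 of the 8 T and NK cell markers (median ratio 1.63), with Cd4 at 0.704. It was above in 5 of the 6 Kupffer cell markers (median ratio 1.27), with Clec4f at 0.844. With the hepatocyte markers counted in, a ratio of at least 2 between the WT livers was found in 7 of 51 markers. These were the 5 with folds given above, Des and Krt7, and the share over all genes tested was 5.87%. The part of other cells in the G2/M values was not tested.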

How the data were processed

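Each of the 4 livers had 1 deposited table of RefSeq transcripts. Its expected counts, fractional read estimates of RSEM for each transcript, carry no normalization, per the file headers and values. Its FPKM, per the file headers, were normalized by the authors for length and depth. HISAT, Bowtie2, RSEM and mm10 are named in the submitters' processing notes, without versions or roles. Livers were flash frozen and RNA was extracted with TRIzol, per the labels' protocols.

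Expected counts were summed per Entrez gene and rounded, and symbols came from RefSeq's table of GRCm38.p6, which named 17502 of 17543 genes; the other 41 were kept under their numbers. The test was the quasi-likelihood F test of edgeR 4.0.16 (R 4.3.3), checked on simulated data first. TMM factors were 1.014 and 1.043 in Ezh2 K307R and 0.8964 and 1.055 in WT. filterByExpr kept genes at about 0.526 CPM in at least 2 livers. Genotype was the sole covariate, which leaves 2 residual degrees of freedom. The p-values were adjusted by Benjamini and Hochberg's method across all 12837 genes, and calls were made under 0.05. The common biological coefficient of variation was 0.217. CPM are counts over TMM library sizes. Replicates differed by more than sampling noise. Depth lay between 18602928 and 20044832 counts, and at this depth many G2/M genes had under 10 reads in a liver, where counting error alone is large.

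Alternatives were 3 other scalings (RLE, upper quartile, total count), DESeq2 1.42.0, limma-voom (limma 3.58.1), limma on log2(FPKM + 1) and log2(FPKM + 0.1), no filter, only genes averaging at least 1 CPM, a block for the replicate number, and each liver left out in turn. The members and lists were chosen with earlier results of these data known. All 34 members are named. From each of 6 pathway lists the genes called are named, or otherwise some of the 4 with the smallest p, and marker lists are given as sums. Genes that share exons with a member were read from the GENCODE M21 annotation and named after their values were seen.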

Additional observations from a re-analysis of the deposited data

How the results depend on the processing

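The calls on the 34 genes hung on the setting. None was called by edgeR with RLE, upper-quartile or total-count scaling, by limma-voom, by either fit of FPKM or at a mean of at least 1 CPM. DESeq2 called 1 higher and 2 lower (G1/S 1 higher and 1 lower, G2/M 1 lower), and so did the fit with no filter (1 higher and 2 lower, G1/S 1 and 1, G2/M 1). With a liver left out, between 0 and 1 was higher and between 0 and 10 were lower, with 0 to 1 higher and 0 to 5 lower in G1/S and 0 to 5 lower in G2/M. Each of these fits takes the spread of the lone liver from that between the livers of the other genotype. Over all genes, 178 were higher and 189 lower with all livers. DESeq2 gave 378 and 386, no filter 410 and 419, log2(FPKM + 1) 94 and 69, and log2(FPKM + 0.1) 91 and 70. Total-count scaling gave 188 higher and 124 lower and moved the median of all genes to 0.087. With a liver left out, 117 to 327 were higher and 94 to 393 lower. The cause of these shifts was not tested.

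The median over all tested members ran between -1.68 and 0.16 with a liver left out and was -0.30 with log2(FPKM + 1), that of the G2/M genes between -1.88 and 0.34, and that of the G1/S genes between -1.09 and -0.36, with -0.23 and -0.24 in the fits of FPKM and -0.59 at a mean of at least 1 CPM. Fits with a liver left out other than WT liver 2 test all 34 genes. Over the genes tested with all livers alone, a choice made after seeing the data, the medians ran between -1.53 and 0.16, between -1.75 and 0.34 for G2/M, and between -1.02 and -0.36 for G1/S (-0.62 without Ezh2 K307R liver 1). The log2 ratio of summed CPM ran between -0.45 and 0.12 for G1/S and between -1.63 and 0.12 for G2/M. With a liver left out the log2 fold change ran between -0.91 and 0.16 for Ccnd1, -1.64 and 0.01 for Cdt1, -0.25 and 0.77 for Tk1, -1.88 and 0.66 for Ccna2, -2.77 and 1.78 for Ccnb1, -1.88 and 0.48 for Ccnb2, -3.75 and 0.00 for Plk1, -0.33 and 0.24 for Aurka, -0.92 and 0.77 for Birc5, -1.63 and 2.56 for Cdc20, -1.64 and 1.22 for Ube2c, -1.49 and 0.25 for Kif11, -1.65 and 1.70 for Tpx2, -1.30 and 0.83 for Prc1, and -1.93 and 0.43 for Mki67. Plk1 reached 0.00 without WT liver 2 and Tk1 turned without Ezh2 K307R liver 1. The others turned without WT liver 2, and Ccnd1, Aurka and Prc1 also without Ezh2 K307R liver 1. Cdc20 stood at 0.15 in limma-voom, and Aurka at 0.00 and 0.02 in the fits of log2(FPKM + 1) and log2(FPKM + 0.1).

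With the replicate block, 166 genes were higher and 181 lower, and 0 of the 34 were called. Of the other genes named as called, Ccne1 (adjusted p = 0.0615), Rrm2 (0.0587), Axin2 (0.0686), Nr1i3 (0.0519) and Myc (0.0591) missed the threshold with the block in edgeR. The labels do not pair the livers, and the deviations of same-numbered livers correlated at -0.0027 over 12837 genes and at 0.268 over the tested members.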

Other observations

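Among signals that start or hold back hepatocyte growth, 28 of 29 listed genes were in the tables and 24 were tested, of which 2 rose and 2 fell in Ezh2 K307R by edgeR's quasi-likelihood test, beside 1.39% and 1.47% of all genes, with a median log2 fold change of -0.15. Axin2, a target and inhibitor of Wnt signalling, rose to 6.84 and 15.5 CPM in the Ezh2 K307R livers, against 2.72 and 1.51 CPM in the WT livers (log2 fold change 2.41, edgeR adjusted p = 0.0395). Nr1i3, the xenobiotic receptor CAR, rose to 94.2 and 143 CPM in the Ezh2 K307R livers, against 53.3 and 50.1 CPM in the WT livers (1.2, edgeR adjusted p = 0.0441). It shares 74.9% of its exon bases with Tomm40l on the opposite strand, so its reads are uncertain. Myc, the growth-inducing factor, fell to 3.29 and 3.79 CPM in the Ezh2 K307R livers, against 8.51 and 8.99 CPM in the WT livers (-1.31, edgeR adjusted p = 0.0428). Tgfbr2, a receptor of the growth-restraining TGF-beta, fell to 19 and 19.2 CPM in the Ezh2 K307R livers, against 54.2 and 37.4 CPM in the WT livers (-1.26, edgeR adjusted p = 0.0346). None of the 4 passed under every setting. Without Ezh2 K307R liver 2 the edgeR adjusted p was 0.148 for Axin2, 0.121 for Nr1i3, 0.115 for Myc and 0.1 for Tgfbr2. Without Ezh2 K307R liver 1 it was 0.154 for Myc and 0.0938 for Tgfbr2, and without WT liver 2 it was 0.0626 for Nr1i3. In limma-voom the adjusted p was 0.0710 for Axin2, 0.0539 for Nr1i3 and 0.0528 for Myc, with total-count scaling it was 0.0907 for Myc, and all 4 missed the threshold in the fits of FPKM. Over all settings it ran between 4.45e-05 and 0.148 for Axin2, 0.000547 and 0.121 for Nr1i3, 0.00769 and 0.154 for Myc, and 0.000339 and 0.1 for Tgfbr2. The genotypes did not overlap in any of the 4, as in 48.6% of all genes tested.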
